A study of Sus scrofa with 6 samples.

Results

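Chromosome 12 had more methylation peaks per Mb than any of the other 4 pig chromosomes that could be compared in longissimus dorsi, a long back muscle. Its members were all peaks placed on chromosome 12 in the 6 deposited peak lists, chosen by position alone. They were joined over libraries into regions wherever they overlapped by at least 1 bp. There were 38201 peaks on chromosome 12, of 306802 on the 5 chromosomes that each list holds to their end (1, 10, 11, 12 and 13) and 393096 in the whole lists. They formed 11474 of the 88582 regions on those 5 chromosomes. The libraries were made from muscle of female purebred pigs, 3 from Yorkshire, a Western breed kept for lean growth, and 3 from Wannanhua, a breed of China. The labels state neither age nor rearing nor any pooling of tissue, and name no treatment. Samples are numbered within a breed without a statement that they are separate animals, so each p covers the spread between these samples, which could be technical.

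Methylated DNA immunoprecipitation sequencing (MeDIP-seq) captures sheared DNA with an antibody to methylated cytosine, so its reads gather where methylated CpG sites lie close together. In mammalian tissues most CpG sites carry the methyl group, while the CpG islands of active promoters usually lack it. Pig chromosome 12 is small and gene-rich, and most of its genes have their counterparts on a single gene-dense human chromosome. A peak here is a stretch in which the caller found more tags (mapped reads) than in the DNA around it in the same library. A stretch without a peak did not reach that cutoff and need not be free of tags. Tag counts per peak and the fold enrichment, a ratio of tags to the local background, are the authors' own values.

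On chromosome 12 Yorkshire 1, 2 and 3 had 6409, 7521 and 6113 peaks, and Wannanhua 1, 2 and 3 had 4567, 7113 and 6478. Over the 63.6 Mb up to the last peak these were 101, 118 and 96.1 peaks per Mb in Yorkshire and 71.8, 112 and 102 in Wannanhua. The breeds overlapped, with Wannanhua 1 lowest and Yorkshire 2 highest. The other 4 chromosomes, pooled, had 59.0 to 77.3 peaks per Mb in Yorkshire and 41.3 to 70.5 in Wannanhua, and chromosome 12 stood above each of them in all 6 libraries. That density is a description, since the chromosome was picked out with it in view. Chromosome 12 made up 8.32% of the compared span and held 12.3 ± 0.55% of the peaks in Yorkshire and 12.8 ± 0.76% in Wannanhua (SD, n = 3; two-sided exact permutation p = 0.5). Wannanhua had 9.88 fewer peaks per Mb than Yorkshire (exact permutation p = 0.6, n = 3), but 1.80 more without Wannanhua 1. Wannanhua had 8.04 more where the same number of best-scoring peaks was taken from each library. After removal of duplicates Wannanhua 1 held 7413391 tags, and Yorkshire 3 held fewer, 6728444.

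**Figure D1:**
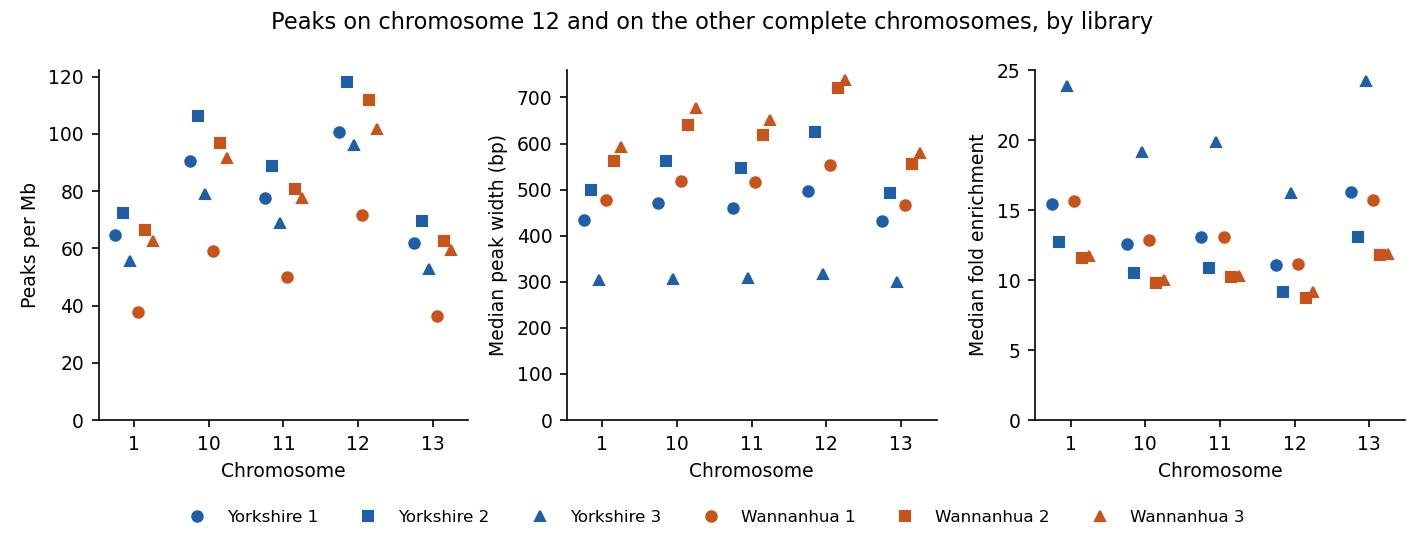
Peaks per Mb, median peak width in bp and median fold enrichment on each of the 5 complete chromosomes, with 1 point per library (blue Yorkshire, orange Wannanhua). On chromosome 12 each library had its most peaks per Mb, its widest median peak and its lowest median fold enrichment.

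Peaks on chromosome 12 were broader, held more tags and were less enriched over their surroundings than peaks elsewhere. Their median width in bp was 497, 624 and 318 for Yorkshire 1, 2 and 3 and 554, 720 and 738 for Wannanhua 1, 2 and 3. The same libraries had medians of 441, 511, 304, 485, 575 and 606 bp on the other 4 chromosomes. Chromosome 12 was thus wider by 88.2 ± 50.3 bp (SD, n = 6), in 6 of 6 libraries, by as little as 14 bp in Yorkshire 3 and as much as 145 bp in Wannanhua 2. The two-sided exact sign-flip permutation p was 0.03125, the smallest that 6 libraries allow, and 0.0411 after adjustment over 25 such tests. Against chromosome 10, the next densest, the median was wider by 45.5 ± 25.4 bp and against chromosome 11 by 58.0 ± 35.5 bp, each in 6 of 6 libraries (exact permutation p = 0.03125, adjusted 0.0411).

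The median fold enrichment of a peak on chromosome 12 was 11.1, 9.17 and 16.2 in Yorkshire 1, 2 and 3 and 11.2, 8.71 and 9.17 in Wannanhua 1, 2 and 3. On the other chromosomes it was 14.7, 12.1, 23.6, 15.4, 11.01 and 11.4 in the same order. Each library was lower on chromosome 12, by 3.77 ± 1.92 on average (SD, n = 6; exact permutation p = 0.03125, adjusted 0.0411). Against chromosome 10 alone the difference was -1.575 ± 0.76 (exact permutation p = 0.03125, adjusted 0.0411). In the means of each breed, median width rose and median fold enrichment fell in order of peak density, over chromosomes 13, 1, 11, 10 and 12. Chromosome 12 was picked with its density in view, so tests of these measures are not independent of that pick. The mean number of tags per peak was higher in 6 of 6 libraries, by 0.37 ± 0.15 on the log2 scale (exact permutation p = 0.03125, adjusted 0.0411). Per kb of called peak the difference in tags was smaller, 0.09 ± 0.06 on the log2 scale, again in 6 of 6 libraries (exact permutation p = 0.03125, adjusted 0.0411). Against chromosome 10 alone it was 0.02 ± 0.05, higher in 4 of 6 libraries (exact permutation p = 0.34375). The greater number of tags in a chromosome 12 peak thus went mostly with its greater length. The fragment length in bp estimated by the caller was 150, 169 and 97 for Yorkshire 1, 2 and 3 against 179, 193 and 202 for Wannanhua, and the median widths on chromosome 12 had nearly the same order.

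Of all tags in peaks on the 5 chromosomes, chromosome 12 held 13.7, 15.7 and 13.9% in Yorkshire 1, 2 and 3 and 17.6, 17.0 and 16.3% in Wannanhua 1, 2 and 3. The breeds did not overlap, with means of 14.4 ± 1.10% and 17.0 ± 0.67% (SD, n = 3). The exact permutation p was 0.1, the smallest that 3 against 3 libraries allow, and 0.5 after adjustment over 10 measures of the chromosome. Called peaks covered 5.76, 8.91 and 3.31% of chromosome 12 in Yorkshire and 4.90, 10.03 and 9.22% in Wannanhua, and there the breeds did overlap. Broad peaks of at least 2500 bp numbered 4, 71 and 3 in Yorkshire and 40, 181 and 157 in Wannanhua. Yorkshire 2 had more of them than Wannanhua 1, so the breeds overlapped here too (exact permutation p = 0.2 for their share of peaks, adjusted 0.5, n = 3). After removal of duplicates the libraries held 6728444 (Yorkshire 3) to 17108367 tags (Wannanhua 2). The part of depth and fragment length in these values was not tested.

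Along the chromosome, peaks were spread over all of its length with a single deep trough. Of 63 complete windows of 1 Mb, 36 had over 100 peaks in the mean of the 6 libraries, and the median was 106. The fewest peaks lay from 28000001 to 34000000. The window from 29000001 to 30000000 had the fewest, 21.5 in the mean of the 6 libraries, followed by 30000001 to 31000000 with 22.8 and 28000001 to 29000000 with 38.8. The next were 32000001 to 33000000 with 55.2 and 31000001 to 32000000 with 55.8. The widest gap between regions on the chromosome, 169883 bp from 29540799 to 29710681, also lay there.

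The 5 densest windows were scattered from 23 Mb to near the far end. The mean number of peaks was 136 from 60000001 to 61000000, 134 from 23000001 to 24000000 and 133 from 48000001 to 49000000. It was 127 from 44000001 to 45000000 and 126 from 40000001 to 41000000. The densest window thus had 6.34 times the peaks of the sparsest. Libraries ordered the windows alike, with Spearman's rho of 0.534 to 0.929 over 63 windows in the 15 pairs of libraries, a description of windows that share a library's depth. The number of peaks and the tags in them followed each other less closely, at rho of 0.371 to 0.815 within a library.

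**Figure D2:**
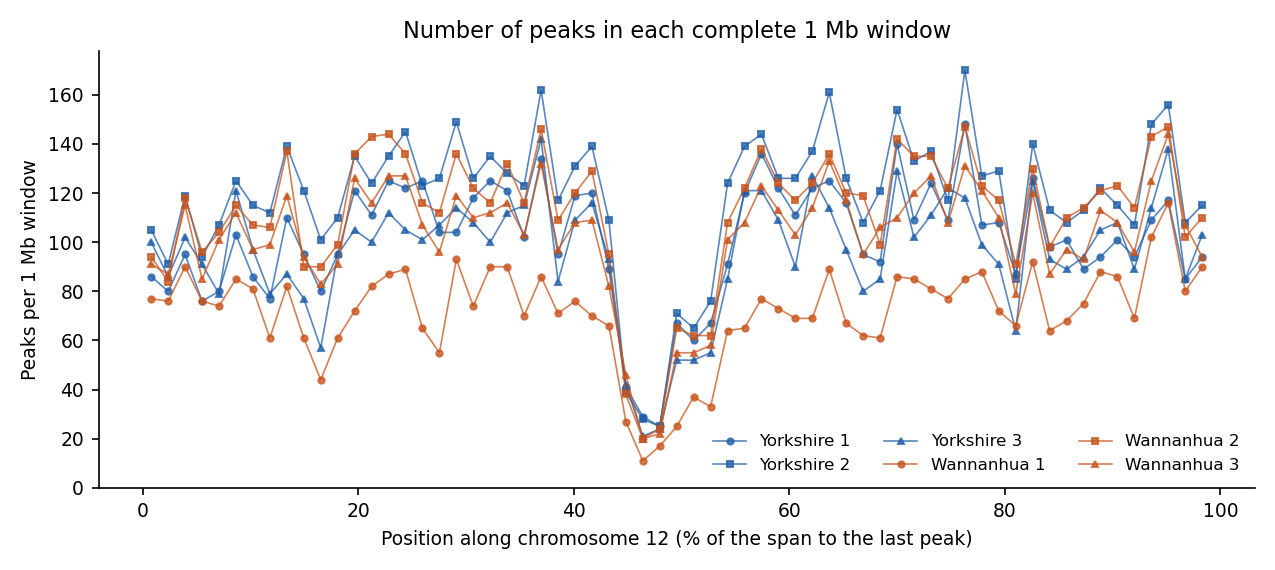
Number of peaks in each complete 1 Mb window of chromosome 12, by position along the chromosome in percent of its span, with 1 line per library. All 6 libraries fell to their lowest counts together a little before the middle, where the mean over libraries was 21.5 in the emptiest window against a median of 106, and Wannanhua 1 lay lowest in most windows.

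Peaks at both ends of the chromosome took a larger share of its peak tags in Wannanhua than in Yorkshire. In the first 10 Mb the peaks held 16.6, 20.6 and 15.0% of the chromosome's peak tags in Yorkshire 1, 2 and 3 and 25.0, 22.8 and 23.1% in Wannanhua 1, 2 and 3. Every Wannanhua library lay above every Yorkshire library, with means of 23.6 ± 1.22% and 17.4 ± 2.89% (SD, n = 3; exact permutation p = 0.1, adjusted 0.15 over 21 stretch shares). Peaks called there covered 60.5, 109 and 34.0 kb per Mb in Yorkshire and 70.4, 131 and 122 kb per Mb in Wannanhua. In tags per 1000000 filtered tags of a library (RPM), they came to 244, 385 and 231 RPM per Mb in Yorkshire and 392, 462 and 427 in Wannanhua. Called length per Mb overlapped between the breeds, while RPM did not. As a share of the chromosome's called length, the stretch held 16.5, 19.2 and 16.2% in Yorkshire and 22.6, 20.6 and 20.8% in Wannanhua. In that share the breeds did not overlap (exact permutation p = 0.1, adjusted 0.15). The share of the chromosome's peaks that lay in the first 10 Mb was similar, 14.6 ± 0.67% in Yorkshire and 15.6 ± 0.98% in Wannanhua, with overlapping ranges (exact permutation p = 0.3, adjusted 0.371).

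The far end differed in the same direction. The stretch from 60000001 to the last peak at 63578348 held 9.53, 10.2 and 9.53% of the peak tags in Yorkshire and 14.3, 11.2 and 11.7% in Wannanhua, and the breeds did not overlap (exact permutation p = 0.1, adjusted 0.15, n = 3). Its tags came to 445 ± 76.2 RPM per Mb in Yorkshire and 622 ± 16.8 in Wannanhua, over 81.7 ± 41.6 and 128 ± 34.6 kb called per Mb (SD, n = 3). Yorkshire held the larger share in the middle. From 30000001 to 40000000 lay 11.95, 9.97 and 11.6% of its peak tags, against 7.36, 8.75 and 8.96% in Wannanhua (exact permutation p = 0.1, adjusted 0.15, n = 3). These shares of 1 chromosome sum to a whole, so a larger share at the ends leaves a smaller share for the middle.

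By window, the fitted difference between breeds followed the same course. The first 9 windows had log2 fold changes of Wannanhua over Yorkshire from 0.57 to 1.14, and the last 2 had 1.03 and 0.87. The windows from 28000001 and from 29000001, in the trough, had log2 fold changes of -0.44 and -0.52. With edgeR's quasi-likelihood test and Benjamini-Hochberg adjustment over all 767 windows of the 5 chromosomes, 0 of the 64 windows of chromosome 12 passed 0.05 in either direction. The background was 0% in each direction, and the smallest adjusted p on the chromosome was 0.0753. At an unadjusted p under 0.05 there were 29 windows with more tags in Wannanhua and 3 with more in Yorkshire. Of all 767 windows, 30.2% had such a p in either direction. DESeq2 called 29 and 3 windows, against a background of 15.9% and 6.4% of all windows.

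The direction of single windows depended on how the libraries were scaled. With edgeR's TMM scaling, which takes most windows as equal between libraries, 53 of the 64 windows (82.8%) had a log2 fold change above 0, against 43.9% of all 767. The median was 0.30 on chromosome 12 and -0.03 over all windows. Scaled by each library's filtered tags, 33 of 64 windows were above 0 and the medians were 0.02 and -0.32, a shift of all windows towards Yorkshire. The distance between chromosome 12 and all windows was alike under both scalings. With the called length as an offset, 54 of 64 windows were above 0 and the medians were 0.11 and -0.01. With that offset and the tag scaling kept, 24 of 64 windows were above 0. The medians were then -0.03 and -0.18, so all windows were again shifted towards Yorkshire. In RPM, all Wannanhua libraries exceeded all Yorkshire libraries in 8 windows, against 3.91% of all windows. The reverse held in 10 windows, against 49%. By number of peaks, all Yorkshire libraries exceeded all Wannanhua libraries in 1 window, against 3.78% of all windows, and the reverse held in 0, against 0%. Of the windows told apart by RPM, the 8 lay among the first 4 windows, the last 3 and the window from 55000001, and the 10 lay between 16000001 and 40000000.

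**Figure D3:**
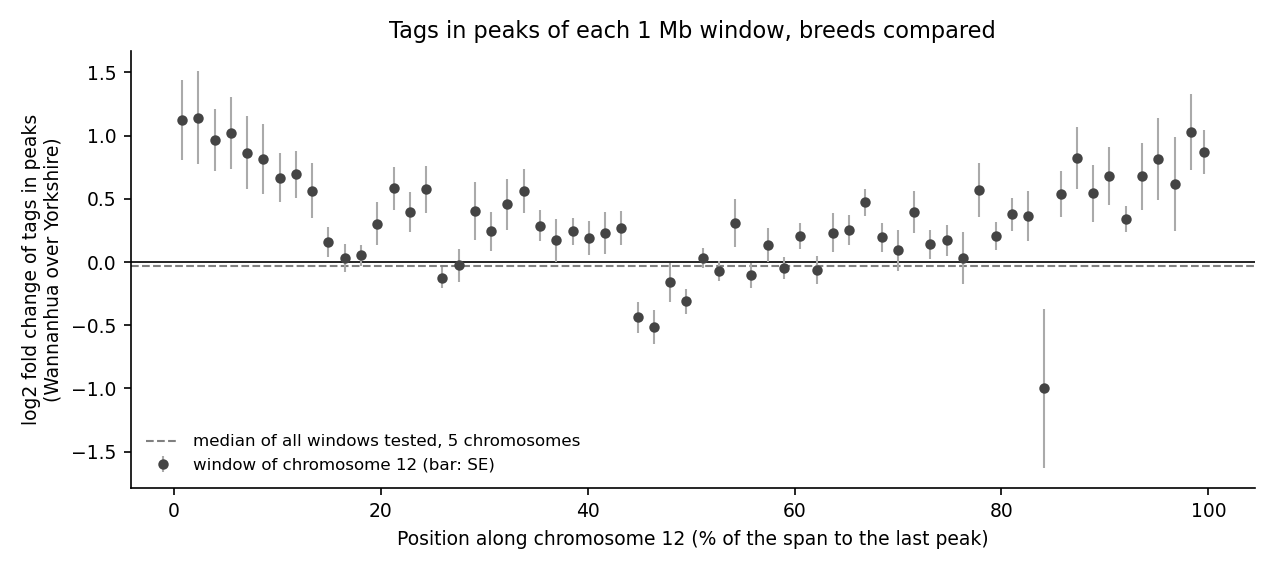
Log2 fold change of tags in peaks (Wannanhua over Yorkshire, edgeR with TMM scaling) for each 1 Mb window, by position along chromosome 12 in percent of its span. Points are windows, bars are standard errors, and the dashed line is the median of all windows on 5 chromosomes, -0.03. Both ends stood above it, up to 1.14 at the start.

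The window with the most negative value was set by 1 library. From 53000001 to 54000000 the peaks held 202, 226 and 923 RPM in Yorkshire 1, 2 and 3 and 157, 208 and 181 in Wannanhua 1, 2 and 3. Yorkshire 3 stood far above the other 5 libraries, and the log2 fold change of -0.999 had a standard error of 0.63. Neighbouring regions that only Yorkshire 3 called held most of the excess, with 3779 tags from 53588330 to 53595682 and 1036 tags from 53595789 to 53597746. They were 3.64% and 0.998% of that library's chromosome 12 peak tags. Yorkshire 3 had the fewest filtered tags and the shortest fragments of the 6 libraries.

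A smaller share of the regions was common to all libraries on chromosome 12 than elsewhere, although per Mb such regions were more frequent, 32.5 against 24.4. Of its 11474 regions, 2064 (18.0%) had a peak in all 6 libraries, against 21.6% of all regions on the 5 chromosomes. A single library had called 3073 regions (26.8%), and 1853, 1430, 1445 and 1609 regions had been called in 2, 3, 4 and 5 libraries. Taken within each library, 33.1, 28.1 and 35.4% of the chromosome 12 regions of Yorkshire 1, 2 and 3 were common to all 6, as were 46.2, 29.5 and 32.3% of those of Wannanhua 1, 2 and 3. On the other chromosomes the shares were 36.3, 32.1, 42.7, 60.0, 35.0 and 36.8%. Chromosome 12 was lower in 6 of 6 libraries, by 3.25 to 13.8 percentage points (exact permutation p = 0.03125, adjusted 0.0469 over 3 measures). Each library's share counts the same 2064 regions, so the 6 differences are not independent of each other. They also depend on how many of a library's regions lie on chromosome 12, which was picked with its density in view. For the share of regions that a library had alone, no difference beyond the spread between libraries was detected (exact permutation p = 0.125, n = 6).

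The regions were also closer together. Chromosome 12 had 180 regions per Mb against 110 on the other chromosomes, and the median gap between neighbours was 3026 bp against 4415 bp. Together the regions covered 10.2 Mb, or 16.0% of the chromosome, against 7.82% elsewhere. A region spans all peaks joined in it, so its width tends to grow with the number of libraries by construction. Regions called in more libraries were broader, with a median width of 455 bp for those of 1 library and 947.5 bp for those of all 6. They were also better filled: in Yorkshire 2 the median rose from 19 to 38 tags, and in Wannanhua 2 from 24 to 42. After the regions of all 6 libraries, the most frequent pattern was a peak in every library but Wannanhua 1, with 742 regions. That library had the fewest peaks on the chromosome.

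**Figure D4:**
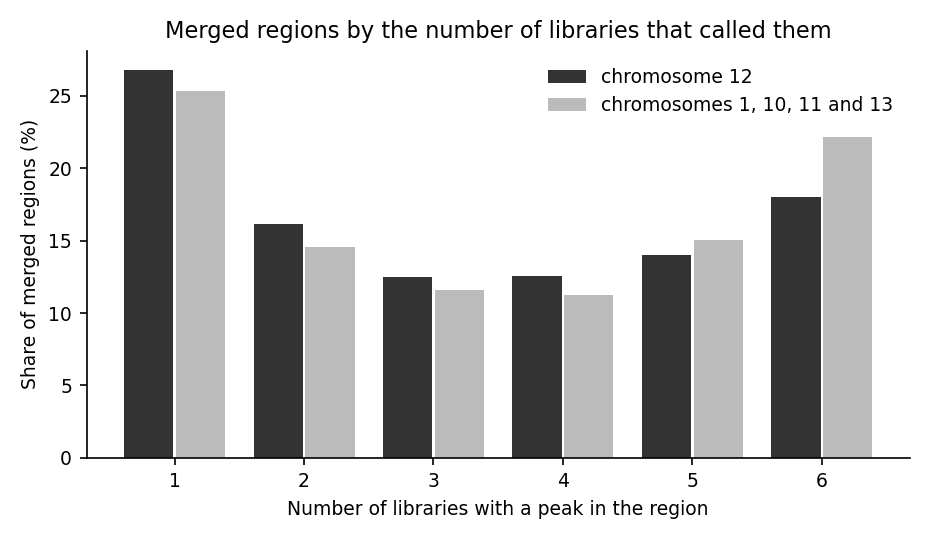
Share of merged regions in percent by the number of libraries, from 1 to 6, that called a peak in them, on chromosome 12 (dark bars) and on chromosomes 1, 10, 11 and 13 (grey bars). Chromosome 12 had the smaller share called in all 6 libraries, 18.0% against 22.2%, and the larger share called in only 1.

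Among the regions common to all libraries, 1 held far more tags than the rest. From 61817059 to 61825864, near the far end, a region of 8806 bp held 3914, 4489 and 2674 tags in Yorkshire 1, 2 and 3 and 3751, 5427 and 4866 in Wannanhua 1, 2 and 3. That was 1.56 to 3.23% of a library's peak tags on chromosome 12 in a single region, the broadest on the chromosome. Its fold enrichment was low, 3.58 to 6.05, and its log2 fold change between breeds was 0.25 with a standard error of 0.40. The next by its lowest RPM was 20161090 to 20166038, with 155, 491 and 134 tags in Yorkshire and 331, 597 and 511 in Wannanhua. Scaled for depth this was 14.6, 32.1 and 19.9 RPM against 44.6, 34.9 and 33.2 RPM, so the breeds overlapped in raw tags but not in RPM, with Yorkshire 2 just under the lowest Wannanhua library. Its log2 fold change of 0.87 did not pass (edgeR's quasi-likelihood test, adjusted p = 0.363).

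The strongest enrichment was found in regions mostly of ordinary tag count for those called in all 6 libraries. Most were narrower than the median width of regions called in all 6 libraries, 947.5 bp. From 33501668 to 33502623, at the edge of the trough, the fold enrichment was 31.0, 28.2 and 53.3 in Yorkshire 1, 2 and 3 and 33.3, 29.1 and 24.2 in Wannanhua 1, 2 and 3. The tags behind these values were 25, 42 and 22 in Yorkshire and 17, 41 and 34 in Wannanhua. From 14021313 to 14022055 the fold enrichment was 25.9 to 47.8, and from 47825052 to 47825925 it was 19.7 to 57.0. The 8 regions highest by this measure were 539 to 956 bp wide, and their log2 fold changes between breeds lay from -0.44 to 0.63 with adjusted p from 0.372 to 0.998 (edgeR's quasi-likelihood test, Benjamini-Hochberg). Among regions called in all 6 libraries, the 8 ranked highest by their lowest RPM and these 8 were different places.

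A peak in all 3 libraries of a breed and in none of the other was found in 179 regions for Yorkshire and 131 for Wannanhua. These were 1.56% and 1.14% of the regions of chromosome 12, against backgrounds of 1.47% and 0.798% of all regions. The Yorkshire-only count was close to its background. Which breed had more depended on the calling: with the same number of best-scoring peaks from each library there were 104 Yorkshire-only and 225 Wannanhua-only regions. Without Wannanhua 1 there were 226 and 357, but a Wannanhua-only region then needed a peak in Wannanhua 2 and 3 only. With all libraries, 224 regions had a peak in those libraries alone. Yorkshire-only regions were narrower, with a median width of 597 bp against 967 bp. By position, 39 of the 179 Yorkshire-only regions lay from 20000001 to 30000000, where 9 of the 131 Wannanhua-only regions lay. From 50000001 to 60000000 lay 24 and 30, and beyond that 18 and 21.

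Yorkshire-only regions with many tags included chr12:3532875-3535359, which held 104, 191 and 46 tags in Yorkshire 1, 2 and 3 at a fold enrichment of 4.55, 3.00 and 6.70. The nearest Wannanhua peak was 12171 bp away. From 28502478 to 28503169 there were 69, 93 and 47 tags, and from 1489030 to 1492062 there were 86, 190 and 36. The region from 28502478 belongs to the group of Yorkshire-rich places at the start of the trough described further on. In the 179 regions the median was 20, 27 and 13 tags in Yorkshire 1, 2 and 3, where the smallest peaks of the chromosome held 9, 11 and 7. A Wannanhua peak lay within 1 kb of 69 of the 179 regions (38.5%).

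Wannanhua-only regions with many tags included chr12:1837148-1840484, which held 99, 292 and 245 tags in Wannanhua 1, 2 and 3 over 1206, 3274 and 3124 bp of called peak. From 383799 to 387682 there were 98, 210 and 166 tags, and from 62365330 to 62367771 there were 89, 203 and 164. All of these lay within 2 Mb of an end of the listed span. Of the 8 Wannanhua-only regions ranked highest, 3 lay in the first 2 Mb and 2 beyond 62000001, and of the 8 Yorkshire-only regions 3 and 1 did. In the 131 regions the median was 18, 40 and 35 tags in Wannanhua 1, 2 and 3, and a Yorkshire peak lay within 1 kb of 54 of them (41.2%).

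In the 2064 regions called in all 6 libraries, tags were compared between breeds by edgeR's quasi-likelihood test, with Benjamini-Hochberg adjustment over all 19161 such regions on the 5 chromosomes. On chromosome 12, 25 regions (1.21%) had more tags in Wannanhua at an adjusted p under 0.05, against a background of 0.543%. Another 5 (0.242%) had more in Yorkshire, against 0.151%. The split was 25 to 12 when only library size was used for scaling and 37 to 15 when filtered tags were used. Over all 19161 regions it was 104 to 87 and 160 to 96. The median log2 fold change of the 2064 regions was 0.12 against -0.04 over all, and 58.6% lay above 0 against 46.2%. With library size alone these medians were -0.01 and -0.16.

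The regions with more tags in Wannanhua lay in the outer parts of the chromosome. Of the 25, 7 lay in the first 10 Mb, 9 from 50000001 to 60000000 and 8 beyond, while 1 lay from 40000001 to 50000000 and 0 in the 30 Mb between. The 2064 tested regions were spread over the chromosome, with 284, 348, 317, 292, 367 and 328 in successive stretches of 10 Mb and 128 beyond 60000001. The median log2 fold change of all tested regions was 0.47 in the first 10 Mb, 0.54 beyond 60000001 and -0.06 from 30000001 to 40000000.

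The greatest change was at chr12:48761022-48762901, which held 36, 92 and 9 tags in Yorkshire 1, 2 and 3 and 191, 318 and 354 in Wannanhua 1, 2 and 3. All Wannanhua libraries lay above all Yorkshire libraries. As TMM-scaled CPM (counts scaled to the tags in tested regions) this was 69.4 ± 50.3 against 458 ± 68.8 (SD, n = 3), a log2 fold change of 2.67 with a standard error of 0.50 (edgeR, adjusted p = 0.0122). Its called length differed less, 1005 ± 763 bp against 1495 ± 412 bp, and tags per kb of called peak were 4.16 times higher in Wannanhua. With the called length as an offset the adjusted p from edgeR was 1.78e-10, and it was 1.73e-07 with the tag scaling kept, where it was the only Wannanhua call of the chromosome. This place lay outside the end stretches, in 1 of the 5 windows with most peaks. Beside it lay the Yorkshire-only region chr12:48758700-48759837, where Yorkshire 1, 2 and 3 had 27, 79 and 24 tags, at a distance of 1184 bp to the nearest Wannanhua peak.

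The next by size was chr12:63125716-63133360, at the far end, with 75, 90 and 37 tags in Yorkshire and 261, 525 and 303 in Wannanhua (log2 fold change 2.34, standard error 0.47, edgeR adjusted p = 0.0183). Here the called length rose as the tags did, from 1440 ± 442 bp in Yorkshire to 5978 ± 1339 bp in Wannanhua. Tags per kb of called peak were 1.19 times those of Yorkshire, and the adjusted p from edgeR with called length as an offset was 0.181. In the first 2 Mb, chr12:1665860-1671277 held 43, 214 and 26 tags in Yorkshire and 273, 491 and 394 in Wannanhua, over 1412 ± 1316 and 5339 ± 68.7 bp of called peak. Nearby, chr12:1222505-1224902 held 12, 33 and 16 tags against 44, 144 and 108, over 540 ± 253 and 1839 ± 783 bp. Both were longer in Wannanhua by more than their tags per kb differed, at 0.98 and 1.31 times Yorkshire.

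The smallest adjusted p on the chromosome belonged to chr12:57317546-57318836, with 9, 20 and 8 tags in Yorkshire and 28, 51 and 58 in Wannanhua. Its called length was 294 ± 36.5 bp and 1061 ± 146 bp (SD, n = 3), and its log2 fold change was 1.72 with a standard error of 0.27 (edgeR, adjusted p = 0.00343). Per kb of called peak its tags were 0.98 times those of Yorkshire. At chr12:60643375-60645014, in the densest window, there were 22, 38 and 8 tags against 59, 117 and 95. At chr12:62348256-62351774 there were 44, 77 and 59 tags against 129, 309 and 276, and both places were among the 5 that passed with called length as an offset.

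Over the 25 regions the called length was greater in Wannanhua in every case, by a median of 2.57 times and a range of 1.36 to 4.15. Over all 2064 tested regions the median was 1.30 times. Tags per kb of called peak in the 25 were higher in Wannanhua in 17, with a median of 1.16 times and a range of 0.75 to 4.16. Tags per kb differed most at chr12:48761022-48762901, by 4.16 times, then at chr12:55808912-55809880 by 2.07, chr12:60643375-60645014 by 1.72 and chr12:62348256-62351774 by 1.66 times. With called length as an offset 5 of the 25 remained and other regions were called, 40 in all, against 170 on the 5 chromosomes. With the tag scaling kept, 1 remained. That fit shifted the regions towards Yorkshire, with a median log2 fold change of -0.25 on chromosome 12 and -0.37 over all regions. On the 5 chromosomes together it called 1 region with more tags in Wannanhua and 9 with more in Yorkshire.

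**Figure D5:**
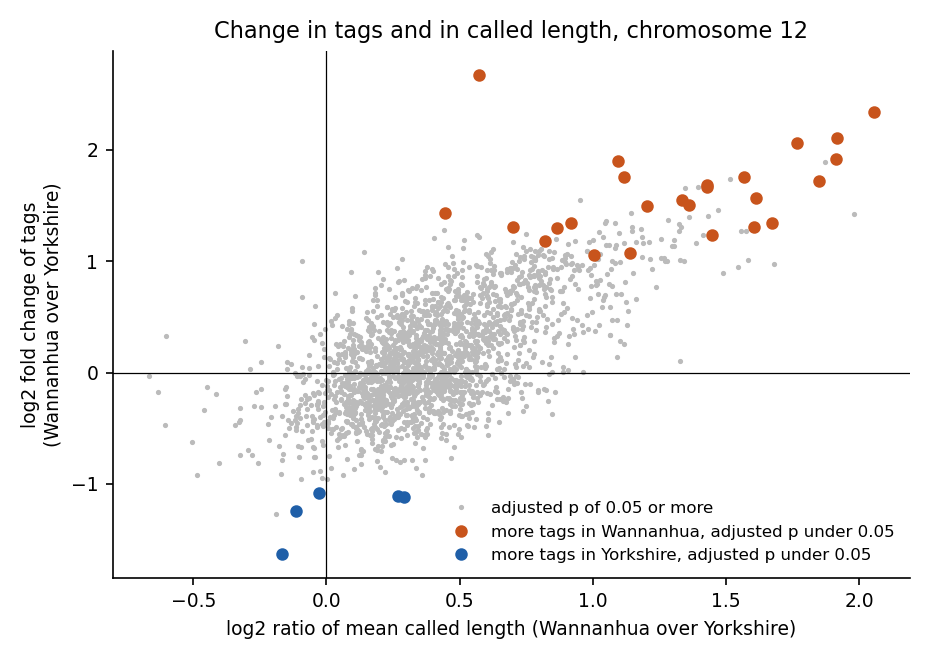
Log2 fold change of tags (Wannanhua over Yorkshire, edgeR) against the log2 ratio of mean called length for the 2064 chromosome 12 regions called in all 6 libraries. Orange points are the 25 regions with more tags in Wannanhua and blue points the 5 with more in Yorkshire at an adjusted p under 0.05, and all orange points lie to the right of 0, up to a length ratio of 4.15.

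These counts rested on few libraries. With more tags in Wannanhua there were 0 regions without Yorkshire 1, 351 without Yorkshire 2, 10 without Yorkshire 3, 11 without Wannanhua 1, 1 without Wannanhua 2 and 3 without Wannanhua 3. Over all 19161 regions the counts were 1, 1543, 46, 46, 6 and 12 in the same order. Fragment length, 97 to 169 bp in Yorkshire and 179 to 202 bp in Wannanhua, did not overlap between the breeds, so that breed and fragment length cannot be told apart by design. With fragment length as a covariate edgeR called 0 regions with more tags in Wannanhua and 1 with more in Yorkshire, which was not among the 5. Over all 19161 regions it called 2 and 4. On chromosome 12, 73 and 116 regions had an unadjusted p under 0.05 in that fit. Without Yorkshire 1, where edgeR called 0 in either direction, 206 and 81 had one. In the main fit 363 and 104 had one, together 22.6% of the 2064, against 16.0% of all regions. That share of all regions was not counted for the fits with the covariate and without Yorkshire 1.

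The 5 regions with more tags in Yorkshire were short and lay between 12 and 46 Mb. The greatest change was at chr12:28504955-28505656, with 62, 77 and 59 tags in Yorkshire 1, 2 and 3 and 17, 36 and 20 in Wannanhua 1, 2 and 3. The breeds did not overlap, and the scaled values were 119 ± 22.1 and 38.7 ± 10.5 CPM (SD, n = 3), a log2 fold change of -1.63 with a standard error of 0.32 (edgeR, adjusted p = 0.0183). Its called length in bp was 525 ± 125 against 467 ± 55.2, and tags per kb in Wannanhua were 0.36 times those of Yorkshire. With called length as an offset its adjusted p from edgeR was 0.00722, and 0.00838 with the tag scaling kept. It lay at the start of the trough of peaks.

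Within 10 kb of it were 2 more Yorkshire-rich places, which were looked up after its values were seen. The Yorkshire-only region from 28502478 to 28503169 is one, and no Wannanhua library called a peak in it. The other, from 28496679 to 28499131, held 213, 269 and 188 tags in Yorkshire and 62, 138 and 121 in Wannanhua. Its breeds did not overlap, but its log2 fold change of -1.27 did not pass (edgeR, adjusted p = 0.134).

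The other 4 Yorkshire regions changed less. They were chr12:12133736-12134620 with 30, 49 and 23 tags against 12, 19 and 17, and chr12:45596110-45597002 with 35, 48 and 31 against 9, 30 and 21. At chr12:40343180-40343830 there were 27, 51 and 17 tags against 9, 22 and 18, and at chr12:23194524-23194978 there were 38, 31 and 31 against 10, 22 and 22. Raw tags overlapped between the breeds at chr12:40343180-40343830 alone, and the scaled values overlapped at none of the 5. Their log2 fold changes were -1.24, -1.12, -1.11 and -1.08, with adjusted p from edgeR of 0.0212, 0.0305, 0.0369 and 0.0478. In all 5 regions the called length was about the same in both breeds, 0.89 to 1.22 times in Wannanhua, and tags per kb were 0.36 to 0.49 times those of Yorkshire. With called length as an offset 3 of the 5 remained, and 1 with the tag scaling kept. The offset lost chr12:12133736-12134620 and chr12:23194524-23194978 (edgeR, adjusted p = 0.0972 and 0.138). The number of regions with more tags in Yorkshire was 0 without Yorkshire 1, Wannanhua 2 or Wannanhua 3, 29 without Yorkshire 2, 3 without Yorkshire 3 and 2 without Wannanhua 1. Over all 19161 regions the counts were 0, 321, 21 and 7 in the same order.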

How the data were processed

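MeDIP-seq libraries of longissimus dorsi from 3 Yorkshire and 3 Wannanhua pigs were used as 1 deposited peak list each. Peaks were called per library with MACS (version 1.4.2 in 5 of the 6 file headers), per the file headers without a control library, at a p cutoff of 1e-05 and with 1 tag kept per position. Neither aligner nor build is given in the sources used here. Each deposited list holds the tag count of a peak, not normalized, and a fold enrichment, which is a ratio computed by the authors' caller. The deposited score was used only for a stricter cutoff of 100 and to rank peaks. Without a control, differences in copy number and mappability remain in the values. Libraries had 6728444 to 17108367 filtered tags, per the file headers, and the smallest chromosome 12 peaks held 7 to 13 tags, so few-tag peaks carry a large counting error.

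Coordinates are those of the lists. On chromosome 12, 1228 peaks lay past the last gene of the RefSeq Sscrofa11.1 table, so no peak was given a gene and no sequence is shown. Lists end part-way through a chromosome, and the 5 chromosomes complete in all were used. A window holds the peaks whose centre lies in it. Tags of a region or window were summed over its peaks and compared by edgeR 4.0.16 under R 4.3.3 (quasi-likelihood, robust, TMM, filterByExpr). The standard error is the log2 fold change divided by the square root of the F value. DESeq2 1.42.0 was an alternative. Single values of libraries were compared by exact two-sided permutation tests (Python 3.11.15, scipy 1.17.1). The edgeR step was tested on simulated data.

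The members, lists and tests were chosen with earlier results of these data known. Regions were named by size of change past the threshold (up to 10 a direction), by the lowest RPM (tags per 1000000 filtered tags) in a breed's libraries for breed-only regions (8 a breed), by tags and by fold rank for regions of all 6 libraries (8 each), and windows by number of peaks (5 each way). Added after seeing the data were the tests of sharing and of stretch shares, the share of tags, places with over 500 tags, pairs of neighbouring breed-only regions and the offset with tag scaling kept.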

Additional observations from a re-analysis of the deposited data

How the results depend on the processing

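The lists limit what can be seen: a region without a peak missed the caller's cutoff, and tags in it are unknown. Wannanhua minus Yorkshire peaks per Mb was -9.88 and turned to 8.04 with the same number of peaks per library. Leaving out 1 library gave -18.2 to 1.80, above 0 only without Wannanhua 1. Against the other chromosomes, median width differed by 76.8 to 103 bp, median fold enrichment by -4.08 to -3.06 and log2 tags per peak by 0.34 to 0.42 without 1 library. Each kept its direction, and 5 libraries cannot give an exact permutation p below 0.0625, so these tests say nothing on stability. Yorkshire-only regions numbered 99 with a score of at least 100, 104 with the same number of peaks and 226 to 426 without 1 library. Wannanhua-only regions numbered 225 with the same number of peaks and 175 to 376 without 1 library. Leaving out a library loosens what makes a region breed-only, so those counts rise largely by definition. Regions with more tags in Wannanhua (25) numbered 135 with DESeq2, 0 with fragment length as a covariate, 40 with called length as an offset, 1 with the tag scaling kept, 8 with peaks within 500 bp merged and 0 to 351 without 1 library. Those with more in Yorkshire (5) numbered 12 by library size only, 15 by filtered tags, 1 with the covariate, 2 with the offset and tag scaling kept, 3 after merging at 500 bp and 0 to 29 without 1 library. Over all 19161 regions DESeq2 called 515 with more tags in Wannanhua and 20 with more in Yorkshire, and the offset 170 and 53. The offset with tag scaling kept called 1 and 9 over all. After merging at 500 bp the counts on the 5 chromosomes were 63 and 22. Windows with more tags in Wannanhua (0) numbered 29 with DESeq2, 18 by library size only, 21 with the offset and 0 to 43 without 1 library. Those with more in Yorkshire (0) numbered 3, 7, 1 and 0 to 3 in the same order. Over all 767 windows, library size only called 58 with more in Wannanhua and 261 with more in Yorkshire, and the offset 76 and 42. Without Yorkshire 2 there were 43 and 3 windows on chromosome 12 and 180 and 89 over all. Where leaving out a library changed the window counts of chromosome 12, it was Yorkshire 2 or, for 1 window, Wannanhua 3. Over all results and alternatives, 96 values kept direction and side of the threshold or, for counts, stayed within 1.5 times. Another 46 counts moved further, 18 values lost the threshold and 2 reversed. With a replicate block edgeR called 52 and 6 regions and 11 and 3 windows with more tags in Wannanhua and Yorkshire. Over all 19161 regions the block gave 225 and 48, and over all 767 windows 39 and 38. The replicate numbers share only a number: deviations of same-numbered libraries correlated at -0.01, 0.03 and -0.05, and not every library correlated best with its own number.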

Other observations

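Breed-only regions of chromosome 12 sat side by side with those of the other breed in places. Of 309 pairs of neighbouring breed-only regions, 14 lay within 5 kb of each other, and 12 of these 14 joined a Yorkshire-only and a Wannanhua-only region. Over all 309 pairs, 51.1% joined opposite breeds. On the other chromosomes 29 of 44 pairs within 5 kb joined opposite breeds, and 41.0% of all pairs did. The closest such pair had a Yorkshire-only region from 61314968 to 61315601 and a Wannanhua-only region from 61316025 to 61317922, 423 bp apart. In the next, a Wannanhua-only region from 47610170 to 47610928 lay 436 bp from a Yorkshire-only region from 47611365 to 47611851. Another pair joined a Wannanhua-only region from 19504392 to 19507010 and a Yorkshire-only region from 19507633 to 19508218, 622 bp apart. A peak of 1 breed beside a peak of the other is a pair of regions here only because the peaks do not touch.

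Regions with over 500 tags in some library included places that were called in libraries of both breeds and missing in others. From 48946469 to 48950398 there were 903, 850 and 577 tags in Yorkshire 1, Yorkshire 3 and Wannanhua 1. The remaining 3 libraries had no peak there. The libraries with a peak had the fewest filtered tags, 6728444 to 10600292, and the fold enrichment was 3.18 to 5.01. From 2090843 to 2096899 there were 326 and 615 tags in Wannanhua 1 and Wannanhua 3 alone, at a fold enrichment of 3.25 and 3.18. The part of depth in which libraries called these places was not tested.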
